A study of Mus musculus with 96 samples.

Results

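The hippocampus of 18-month-old mice given young plasma or saline in the first of the study's 2 experiments made up 9 of the 96 libraries of the series. The libraries were chosen by their titles, which name the region, the age, the injection and the experiment, and no measured value entered the choice. Bulk mRNA was sequenced from the hippocampus, cortex and cerebellum of male C57BL/6J mice to map the effects of young plasma across brain regions. The plasma group held 5 mice of 18 months injected with young plasma on 7 consecutive days (replicates 1, 4, 7, 10 and 13), and the control group held 4 mice of 18 months injected with PBS, the saline vehicle, on 7 consecutive days (replicates 2, 5, 8 and 11). Untreated (naive) mice of 18 months (3 libraries) and 2 months (4 libraries) were used to describe age, and a second experiment gave 5 plasma and 4 PBS hippocampi from other 18-month mice on the same schedule. The first-experiment fit also held hippocampi of 22-month mice injected for 7 days, 3 with plasma and 3 with PBS. It held 19-month mice injected for 24 days, 3 with plasma and 4 with PBS. These groups entered the estimate of the spread but not the comparison. For the young mice the sample labels give 2 months and the series description gives 3 months. The dose, route and donors of the plasma are not given in the sources used here, and each library is 1 mouse.

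The hippocampus forms and retrieves memories through a circuit that runs from dentate granule cells to the pyramidal neurons of CA3 and CA1. In the aged hippocampus microglia and astrocytes raise complement, antigen presentation and interferon genes, myelin genes shift, and the birth of new dentate granule neurons declines. Young plasma reaches the brain through the circulation, and the blood vessels, the choroid plexus, glia and neurons all carry receptors for blood-borne factors.

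Depth ran from 1659775 to 15340032 counts in the plasma libraries and from 3920315 to 13566011 in the PBS libraries, and plasma replicate 4 was the shallowest of the 9. Levels are given as CPM, the counts of a gene per 1000000 counts of its library, and differences as log2 changes with standard errors (SE) from edgeR. The libraries carried hippocampal markers: Prox1, the transcription factor of dentate granule cells, ran from 44.4 to 108 CPM, and Wfs1, a CA1 marker, from 88.1 to 154 CPM. Markers of subregions varied between the libraries. Prox1 was at 44.4 and 44.5 CPM in PBS replicates 5 and 11 and at 65.3 CPM or above in the other 7 libraries. In plasma replicate 7, 5 choroid plexus markers (Ttr, Folr1, Kl, Kcnj13 and Clic6) summed to 2687 CPM, against 28.1 to 139 CPM in the other 8 libraries. The titles also carry a second number whose meaning is not stated. Plasma replicates 1, 4 and 7 have 33646, PBS replicates 2, 5 and 8 have 33645, and only plasma replicates 10 and 13 and PBS replicate 11 share 33810, so that outside these 3 mice the number and the injection cannot be told apart.

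No gene passed an adjusted p of 0.05 in the comparison of plasma with PBS. Of 18070 genes tested with edgeR's quasi-likelihood test, 0 (0%) passed, and the lowest adjusted p was 0.9998. At an unadjusted p under 0.05 there were 440 genes (2.43%), 251 higher (1.39%) and 189 lower (1.05%) with plasma. DESeq2 also called 0 genes, with 303 at an unadjusted p under 0.05, and limma-voom with quality weights called 0, with 930. The log2 change was above 0 for 51.7% of the genes, and its median was 0.01. In 217 genes (1.20%) the 5 plasma and 4 PBS libraries did not overlap in CPM, with plasma above PBS in 92 (0.509%).

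The precision of this comparison differed by level. Among the 12767 genes with a mean of at least 5 CPM, the median SE was 0.12 and the median absolute log2 change was 0.07. The 95% confidence interval of the difference lay within -1 and 1 on the log2 scale for 12449 of these genes (97.5%). It lay within 1.5-fold in both directions for 11169 of them (87.5%). A change of 1 or more on the log2 scale was estimated for 20 genes of this level, and none of them passed the test. The fit behind these SE held 4 libraries, outside the compared groups, that were low in a score of dentate and CA markers, their mean log2 CPM. They were 19-month plasma replicate 23 (5.13), 19-month PBS replicate 24 (4.68) and naive 2-month replicates 14 (4.47) and 20 (5.37). The median of the score over the fit was 5.85. A fit without these libraries also called 0 genes. In the plot of change against level, the spread narrows as the level grows.

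**Figure D1:**
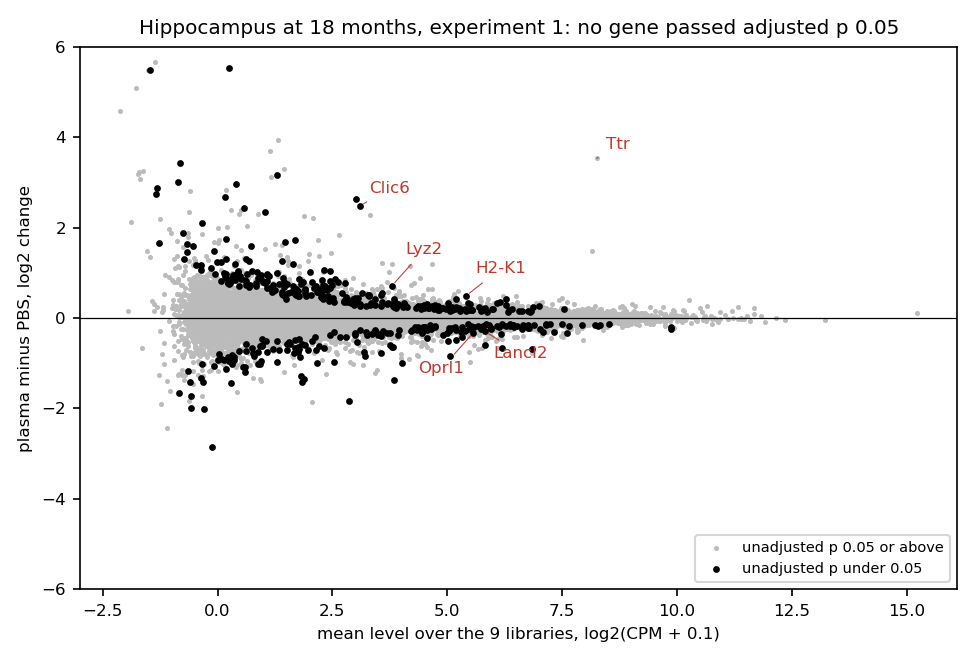
Each dot is 1 of the 18070 genes tested, with its mean level over the 9 libraries on the x axis as log2(CPM + 0.1) and the log2 change of plasma against PBS on the y axis. Black dots are the 440 genes with an unadjusted p under 0.05, 0 genes passed the adjusted test, and 1 gene lies outside the plotted range.

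The genes named next had the lowest unadjusted p values of each direction among genes of at least 5 CPM, and none passed the adjusted test. Lancl2, which encodes a LanC-like protein (chromosome 6, start 57702455, end 57739449, GRCm38), was at 48.2, 51.8, 48.3, 49.9 and 56.6 CPM in the plasma libraries and at 62.5, 64.7, 60.9 and 61.9 CPM in the PBS libraries. Every plasma library lay below every PBS library. The log2 change was -0.29 ± 0.10 (SE) at an unadjusted p = 0.00921 in edgeR, and without any 1 of the 9 libraries it ran from -0.34 to -0.26. Oprl1, the receptor of the neuropeptide nociceptin, was at 43.3, 41.0, 39.6, 44.3 and 44.0 CPM with plasma and at 57.6, 49.1, 50.2 and 56.8 CPM with PBS. These groups did not overlap either, and the log2 change was -0.32 ± 0.10 (SE, unadjusted p = 0.00293 in edgeR).

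Pdk1, a kinase that restrains the entry of pyruvate into the citric acid cycle, was at 59.5, 50.6, 49.0, 60.2 and 63.0 CPM with plasma and at 66.1, 68.3, 64.3 and 71.3 CPM with PBS. Its groups did not overlap, and the log2 change was -0.24 ± 0.09 (SE). Ubr7, a ubiquitin ligase of the N-recognin family, was at 45.8, 44.6, 41.5, 44.2 and 44.6 CPM with plasma and at 51.8, 53.8, 49.2 and 49.6 CPM with PBS, again without overlap, with a log2 change of -0.21 ± 0.07 (SE). Slc6a7, the brain's proline transporter, was at 27.5 CPM in plasma replicate 1, inside the PBS range of 26.6 to 28.5 CPM, and at 15.8 to 23.8 CPM in the other 4 plasma libraries. Tmem35a, a chaperone of nicotinic acetylcholine receptors, had the lowest unadjusted p of the named genes, 0.00164 in edgeR, with 30.7 ± 4.17 CPM (SD, n = 5) in plasma and 43.2 ± 6.33 CPM (SD, n = 4) in PBS. Its groups overlapped through plasma replicate 1, at 37.8 CPM, and PBS replicate 2, at 37.5 CPM. The other 6 lower genes named by the rule, Utp18, Slc25a40, Spin2c, Tmem178b, Armcx4 and Zfp286, had log2 changes from -0.53 to -0.25.

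The 12 genes higher with plasma also had no passing member. Snx9, a sorting nexin that shapes membranes during endocytosis, was at 14.7, 16.3, 19.8, 15.9 and 13.6 CPM with plasma and at 12.5, 10.6, 11.7 and 13.3 CPM with PBS. The lowest plasma library lay just above the highest PBS library, and the log2 change was 0.41 ± 0.13 (SE, unadjusted p = 0.00363 in edgeR). Acadvl, the mitochondrial enzyme that starts the oxidation of very long chain fatty acids, was at 60.4, 57.8, 70.4, 57.3 and 55.3 CPM with plasma and at 52.3, 53.6, 49.6 and 53.1 CPM with PBS, with a log2 change of 0.21 ± 0.08 (SE). Nf2, which encodes the tumour suppressor merlin, was at 80.8 to 85.0 CPM in 4 plasma libraries and at 62.8 CPM in plasma replicate 1, within the PBS range of 56.4 to 67.2 CPM. Csad, an enzyme of taurine synthesis, averaged 27.4 ± 1.26 CPM (SD, n = 5) with plasma and 22.4 ± 3.30 CPM with PBS (SD, n = 4), with PBS replicate 11 at 27.3 CPM inside the plasma range. The other 8 higher genes, Atp23, Paqr5, Fhad1, Plekhg1, Cetn4, Fam98c, Hhatl and Muc3a, had log2 changes from 0.29 to 0.87 and means of 23.6 CPM or less in PBS.

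Within the title number 33810, all 24 of these genes kept the direction of the full comparison, as values of 2 plasma mice against 1 PBS mouse. These mice were also among those by which the genes were chosen. For Lancl2 the log2 ratio within the number was -0.22, for Oprl1 -0.36, for Snx9 0.15 and for Acadvl 0.08. Without these 3 mice, a fit of 3 plasma against 3 PBS mice called 0 genes, with 478 at an unadjusted p under 0.05.

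**Figure D2:**
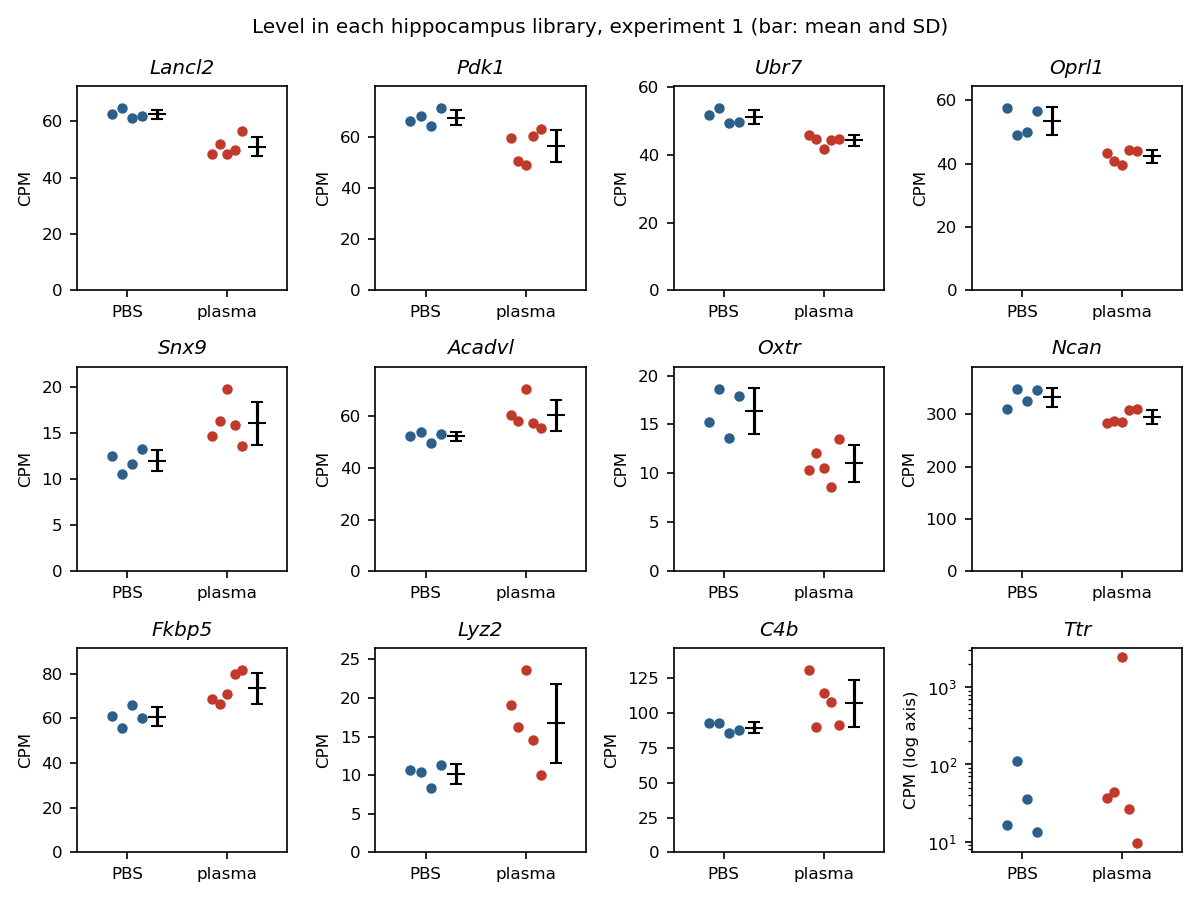
Each dot is the CPM of 1 hippocampus library, blue for the 4 PBS mice and red for the 5 plasma mice, for 12 genes named in the text, and bars give the mean and SD of a group. The axes start at 0 except for Ttr, which is on a log axis without bars, and the groups of Lancl2, Pdk1, Ubr7, Oprl1, Snx9, Acadvl, Oxtr, Ncan and Fkbp5 do not overlap.

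Genes of antigen presentation stood higher with plasma than with PBS as a list, and none passed the test. MHC class I molecules display peptides at the cell surface, where beta-2-microglobulin, encoded by B2m, holds the heavy chain in shape and the Tap1 and Tap2 transporter supplies the peptides. All 16 tested members had a log2 change above 0, against 51.7% of all genes, with a median of 0.53 beside 0.01 over all genes and a range of 0.11 to 1.73. At an unadjusted p under 0.05 there were 6 higher and 0 lower members, beside 1.39% and 1.05% of all genes. The summed level of the list overlapped between the groups, at 227 to 427 CPM with plasma and at 228 to 262 CPM with PBS. In naive 18-month mice the sum averaged 312 ± 56.6 CPM (SD, n = 3), beside means of 316 CPM with plasma and 247 CPM with PBS. The naive mean thus lay near that of the plasma group.

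The heavy chain gene H2-K1 was at 53.9, 29.5, 67.1, 52.4 and 37.3 CPM in the plasma libraries and at 36.7, 31.9, 34.5 and 37.8 CPM in the PBS libraries. The heavy chain gene H2-D1 was at 94.2, 63.3, 117, 95.5 and 64.8 CPM with plasma and at 69.6, 61.3, 67.7 and 68.3 CPM with PBS. In both genes plasma replicates 1, 7 and 10 lay above all PBS libraries, while replicates 4 and 13 lay within or below the PBS range. The sum of 5 blood markers (Hba-a1, Hba-a2, Hbb-bs, Hbb-bt and Alas2) was also highest in plasma replicates 1 and 10, at 21.8 and 23.7 CPM, against 2.51 to 9.64 CPM in the other 7 libraries. Without replicate 1 the antigen presentation median was 0.51, and without replicate 10 it was 0.50, and the part of the blood markers was not tested further. The log2 changes were 0.49 ± 0.19 (SE, unadjusted p = 0.0133 in edgeR) for H2-K1 and 0.41 ± 0.16 (SE, unadjusted p = 0.017 in edgeR) for H2-D1. B2m was at 95.2, 71.7, 99.9, 85.2 and 62.9 CPM with plasma and at 69.9, 69.9, 71.9 and 65.4 CPM with PBS, a log2 change of 0.28 ± 0.11 (SE). Tap1, named after its values were seen because it was the member without overlap, was at 8.15, 4.22, 5.65, 5.47 and 5.24 CPM with plasma and at 4.08, 3.94, 3.77 and 2.95 CPM with PBS, a log2 change of 0.73 ± 0.21 (SE). H2-Q6 and H2-Q7, class I genes so alike that reads can be split between them, had log2 changes of 0.67 ± 0.38 and 1.25 ± 0.47 (SE), and H2-Q7 had 0 counts in plasma replicate 4.

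The regions before the start sites of H2-D1, B2m and Tap1 are shown because class I genes are known to be switched on by interferon regulatory factors through short repeats of GAAA. They are RefSeq sequences of GRCm38.p6, 250 bases each on the gene's strand, 5′ to 3′. H2-D1 lies on the plus strand at chr17:35262844-35263093, B2m on the plus strand at chr2:122147437-122147686 and Tap1 on the plus strand at chr17:34187306-34187555. Capitals mark matches to GAANNGAAA or GAAANNGAAA on either strand, motifs chosen after these sequences had been seen.
H2-D1: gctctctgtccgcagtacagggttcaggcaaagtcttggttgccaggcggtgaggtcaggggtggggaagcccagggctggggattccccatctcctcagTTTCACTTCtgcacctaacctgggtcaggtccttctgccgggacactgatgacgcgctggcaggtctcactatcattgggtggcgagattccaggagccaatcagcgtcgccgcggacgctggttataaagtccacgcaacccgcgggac
B2m: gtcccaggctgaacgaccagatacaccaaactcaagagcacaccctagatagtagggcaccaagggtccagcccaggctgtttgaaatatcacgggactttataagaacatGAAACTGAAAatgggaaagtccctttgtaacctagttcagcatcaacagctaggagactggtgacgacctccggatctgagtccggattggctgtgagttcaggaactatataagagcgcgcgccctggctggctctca
Tap1: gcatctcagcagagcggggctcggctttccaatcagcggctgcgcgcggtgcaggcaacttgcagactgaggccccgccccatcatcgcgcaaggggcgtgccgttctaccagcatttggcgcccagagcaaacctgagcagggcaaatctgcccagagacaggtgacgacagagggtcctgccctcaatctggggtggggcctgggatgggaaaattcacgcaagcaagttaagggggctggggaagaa
The match in H2-D1 begins 150 bases before the start site and is GAANNGAAA read on the opposite strand. The match in B2m begins 139 bases before the start site and is GAAANNGAAA on the gene's own strand. No match lies in the Tap1 window. The share of 32851 promoter windows of this length with a match was 6.31% for GAANNGAAA, 2.98% for GAAANNGAAA and 8.82% for either, since a window can hold both. Of the 12 antigen presentation genes with a window in the RefSeq table, 6 held a match (B2m, H2-D1, H2-K1, H2-Q6, H2-Q7 and H2-T23). Of the 17 interferon response genes with a window, 9 held one (Bst2, Gbp2, Gbp3, Ifit1, Ifit3, Isg15, Rsad2, Stat2 and Trim30a). Counted per gene in the same way, 1043 of the 12191 tested genes with a window (8.56%) held a match.

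The interferon response list, genes that cells switch on when interferons bind their receptors, had 22 of 22 members above 0 with a median log2 change of 0.42. At an unadjusted p under 0.05 there were 2 members, both higher and both rare, beside 1.39% of all genes that were higher. Gbp6, an interferon-induced GTPase, was at 4.50, 0.602, 4.16, 1.22 and 0.798 CPM with plasma and at 0.255, 0.538, 0.566 and 1.40 CPM with PBS. Rsad2, an antiviral enzyme, had a log2 change of 0.87 ± 0.39 (SE) at a mean of 1.67 CPM in plasma. Stat2, a transcription factor of the interferon response, had a log2 change of 0.03 ± 0.10 (SE). The summed level of the list was 164 to 303 CPM with plasma and 169 to 199 CPM with PBS. Its mean was 219 ± 26.1 CPM (SD, n = 3) in naive 18-month mice, beside 218 CPM with plasma and 185 CPM with PBS.

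Plasma replicate 7, the library with the choroid plexus markers, had the highest summed level of both lists, and replicates 1 and 10, with the blood markers, the next highest. Without it, the median log2 change was 0.36 for antigen presentation and 0.25 for interferon response. With the choroid plexus score as a covariate over the region's libraries, the medians were 0.37 and 0.31. Since bulk tissue was sequenced, fewer cells of a type and less RNA per cell cannot be told apart in these values.

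The choroid plexus and ependyma list had a median log2 change of 2.22, with 14 of 15 members above 0, and plasma replicate 7 decided this value. Ttr, the thyroid hormone carrier made in bulk by the choroid plexus, was at 37.3, 44.0, 2444, 26.8 and 9.57 CPM with plasma and at 16.3, 111, 36.2 and 13.5 CPM with PBS. Clic6, a chloride channel gene of the same epithelium, was at 54.0 CPM in plasma replicate 7 and at 1.03 to 5.48 CPM in the other plasma libraries. Without plasma replicate 7 the list median was -0.13 and the log2 change of Ttr was -0.66. The erythroid list had a median of 1.58 with 6 of 7 members above 0, at very low levels. Hbb-bs, an adult beta globin, was at 5.61, 1.81, 0.550, 7.27 and 0 CPM with plasma and at 0.765, 0.358, 0 and 1.11 CPM with PBS. With only the 9 compared libraries in the fit, the erythroid median was 0.16.

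Complement and microglia genes gave no call. All 12 complement genes had a log2 change above 0, with a median of 0.21. C4b, a complement component made by glia, was at 131, 89.8, 114, 108 and 91.7 CPM with plasma and at 93.1, 92.6, 85.5 and 87.6 CPM with PBS, a log2 change of 0.27 ± 0.20 (SE, unadjusted p = 0.176 in edgeR). The C1q chains C1qa, C1qb and C1qc, made by microglia, had 0.17 ± 0.09, 0.10 ± 0.09 and 0.12 ± 0.13 (SE). Without plasma replicate 7 the complement median was 0.10. Homeostatic microglia genes, the resting signature of these cells, had a median of -0.02 with 4 of 12 above 0.

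Activated microglia genes had a median of 0.11 with 13 of 15 above 0, and the median was 0.07 without plasma replicate 1 and 0.17 without PBS replicate 5. Lyz2, the lysozyme of myeloid cells, was the member with an unadjusted p under 0.05. It was at 19.0, 16.3, 23.6, 14.5 and 10.0 CPM with plasma and at 10.7, 10.4, 8.30 and 11.3 CPM with PBS, a log2 change of 0.72 ± 0.27 (SE, unadjusted p = 0.0147 in edgeR). In 4 of 5 plasma libraries Lyz2 lay above every PBS library. In naive 18-month mice it was at 18.0 ± 3.50 CPM (SD, n = 3), above all 4 PBS libraries in its mean.

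Astrocyte and myelin genes differed by less than the test could call. Reactive astrocyte genes had a median of 0.26 with 12 of 14 above 0, and 0.15 without plasma replicate 7. Their summed level averaged 750 ± 126 CPM (SD, n = 3) in naive 18-month mice, beside 747 CPM with plasma and 633 CPM with PBS. Gfap, the intermediate filament of reactive astrocytes, was at 586, 592, 627, 602 and 534 CPM with plasma and at 538, 430, 489 and 505 CPM with PBS, overlapping through plasma replicate 13 and PBS replicate 2, with a log2 change of 0.27 ± 0.18 (SE). Serpina3n, a protease inhibitor of reactive astrocytes, had 0.13 ± 0.40 (SE). Lcn2, a member of 2 lists with the highest log2 change in both, 2.68 ± 1.07 (SE), was at 7.17 CPM in plasma replicate 1 and at 0 to 0.516 CPM in the other 8 libraries.

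The 13 myelin genes all had a log2 change above 0, with a median of 0.20 and a range of 0.10 to 0.34, and 0 had an unadjusted p under 0.05. Mobp, a myelin structural gene, was at 603, 739, 903, 731 and 682 CPM with plasma and at 659, 664, 646 and 509 CPM with PBS, so that 4 plasma libraries lay above and plasma replicate 1 within the PBS range. The summed level of the list was highest in plasma replicate 7 and lowest in plasma replicate 1, at 4238 CPM, and PBS replicate 11, at 4290 CPM. Without plasma replicate 7 the myelin median was 0.08, and without PBS replicate 11 it was 0.12.

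Neuronal genes gave medians near that of all genes, except for the dentate granule list and the striatal and thalamic list. Synaptic genes had a median of -0.02 with 8 of 21 above 0, and immediate early genes, which record recent activity, 0.02 with 16 of 24 above 0. Fos, the immediate early transcription factor, varied from 8.92 to 33.5 CPM among plasma mice and from 15.3 to 23.4 CPM among PBS mice. Its log2 change was 0.03 ± 0.42 (SE), with a 95% interval of -0.84 to 0.90. Bdnf, the neurotrophin of activity-dependent plasticity, averaged 52.0 ± 3.53 CPM (SD, n = 5) with plasma and 46.8 ± 4.95 CPM with PBS (SD, n = 4), a log2 change of 0.15 ± 0.17 (SE).

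Neurogenesis genes had a median of -0.06 with 6 of 12 above 0. Dcx, a microtubule protein of newborn neurons, was at 16.9, 10.8, 13.5, 10.9 and 13.6 CPM with plasma and at 13.8, 21.1, 13.6 and 22.1 CPM with PBS. The highest values were those of PBS replicates 5 and 11, the 2 libraries lowest in Prox1. Dentate granule genes had a median of 0.30 with 10 of 12 above 0, and striatal and thalamic genes a median of -0.22 with 5 of 14 above 0. Drd1, a dopamine receptor of striatal neurons, was at 21.1 and 12.5 CPM in PBS replicates 5 and 11 and at 4.22 to 9.11 CPM in the other 7 libraries. Without PBS replicate 5 the striatal and thalamic median was 0.12 and the dentate median 0.19. Without plasma replicate 7 the striatal and thalamic median was -0.48, and without PBS replicate 11 the dentate median was 0.15. Tac1, the tachykinin precursor, did not overlap, at 11.2 ± 1.52 CPM (SD, n = 5) with plasma and 17.4 ± 2.05 CPM (SD, n = 4) with PBS. With dentate, CA and striatum or thalamus scores as covariates, the log2 change was -0.56 for Tac1 (beside -0.65 without them), -0.47 for Drd1 (beside -0.84) and -0.30 for Dcx (beside -0.42). The striatum or thalamus score holds Drd1 itself, so that fit cannot test its change. Without PBS replicate 5 the log2 change of Drd1 was -0.48.

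Of the 16 tested genes of blood-borne factors and their receptors, 8 were above 0 with a median of 0.00, and the groups of 2 did not overlap, Oxtr and Csf2rb, beside 1.20% of all genes. Oxtr, the oxytocin receptor, was at 10.4, 12.0, 10.5, 8.63 and 13.6 CPM with plasma and at 15.3, 18.6, 13.6 and 17.9 CPM with PBS, a log2 change of -0.60 ± 0.23 (SE, unadjusted p = 0.0146 in edgeR). Plasma replicate 13 and PBS replicate 8 almost touched. In naive 18-month mice Oxtr was at 8.88 ± 4.00 CPM (SD, n = 3), a mean below the plasma libraries except replicate 10. Csf2rb, a shared receptor chain of colony-stimulating factors named after its values were seen, was at 1.58 to 2.67 CPM with plasma and at 0.189 to 1.25 CPM with PBS.

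Glucocorticoid response genes had a median of 0.21 with 16 of 20 above 0. The median was 0.13 without plasma replicate 7, 0.13 without PBS replicate 11 and 0.10 in limma-voom on the 9 libraries. The groups did not overlap for 1 of the 20, beside 1.20% of all genes. Fkbp5, a chaperone induced by glucocorticoids, was at 68.7, 66.3, 71.0, 79.7 and 81.7 CPM with plasma and at 61.2, 55.5, 66.0 and 60.0 CPM with PBS. The groups did not overlap in these 9 libraries, while the fit over all groups of the region gave 0.29 ± 0.19 (SE, unadjusted p = 0.133 in edgeR). Per3, a clock gene, had 0.20 ± 0.09 (SE) in a clock list with a median of 0.03. Ncan, a proteoglycan of the matrix around neurons, was at 284, 287, 285, 308 and 310 CPM with plasma and at 310, 348, 325 and 346 CPM with PBS, a log2 change of -0.17 ± 0.07 (SE). Ribosomal protein genes (median 0.04), proteasome genes (-0.02), chaperones (0.01) and oxidative phosphorylation genes (0.00) lay close to the median of all genes.

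The second experiment repeated the 7 injections in 9 other mice and shares no library with the first. Ttr, the choroid plexus marker, was at 1404, 1176, 1356, 24.2 and 2274 CPM in its plasma libraries. In its PBS libraries Ttr was at 50.9, 21.0, 2956 and 25.9 CPM. How far choroid plexus tissue entered the values of the second experiment was not tested. Of 17126 genes tested, 0 (0%) passed in edgeR, with 1363 (7.96%) at an unadjusted p under 0.05. In DESeq2 21 genes passed. Antigen presentation genes had 7 of 16 above 0 there, with a median of -0.02, in a fit where 49.2% of all genes were above 0. Interferon response genes had 14 of 22 above 0 with a median of 0.05. The test of the difference between the experiments gave 0 of 17569 genes (0%) past adjusted p 0.05 in edgeR and 0 in DESeq2, with 545 (3.10%) at an unadjusted p under 0.05 in edgeR. Among these were 6 of 16 antigen presentation genes, each higher in the first experiment. B2m was close in both, at 0.28 ± 0.11 and 0.27 ± 0.08 (SE), whereas H2-K1 was at 0.49 ± 0.19 and -0.03 ± 0.18 (SE), a difference with an unadjusted p = 0.0593 in edgeR. Myelin genes had 13 of 13 above 0 with a median of 0.24 in the second experiment, and complement genes 9 of 11 with 0.26.

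**Figure D3:**
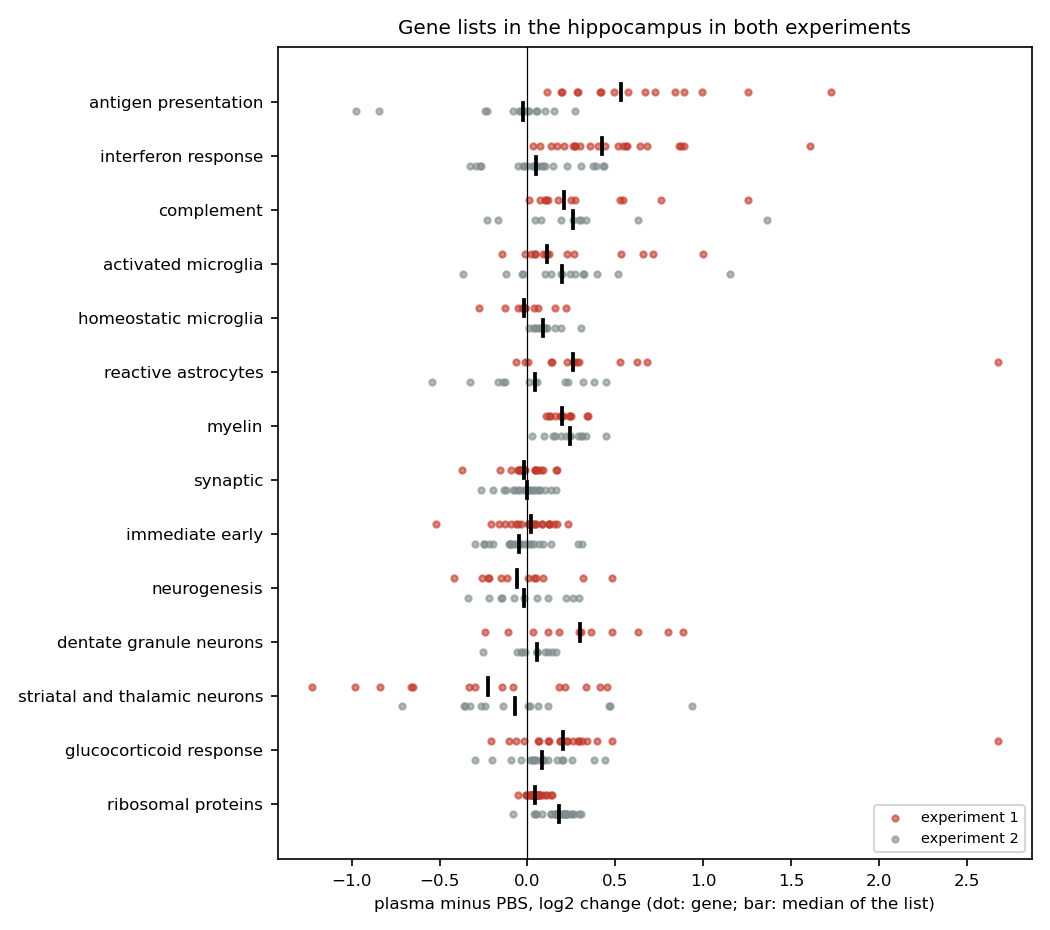
Each dot is the log2 change of plasma against PBS of 1 gene in a list, red for experiment 1 and grey for experiment 2, and each black bar is the median of the list. Antigen presentation has medians of 0.53 and -0.02, interferon response 0.42 and 0.05, and myelin 0.20 and 0.24 in experiments 1 and 2.

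Across the 17084 genes tested in both experiments, the log2 changes had the same sign in 58.2%, and Spearman's rho across genes was 0.21, as a description, since genes of a library share its composition. Of the 405 genes with an unadjusted p under 0.05 in the first experiment and tested in both, 287 (70.9%) had the same sign in the second. At an unadjusted p under 0.05 in both there were 39 genes, which is 9.63% of those 405, beside 7.96% of all genes in the second experiment, and 2.87% of the 1360 of the second experiment, beside 2.43% of all genes in the first. Of the 39, 36 had the same sign, 15 higher and 21 lower. The 3 with opposite signs were H2-Q7, Adgrf5 and Cnot1. Of the genes named by the rule above, 4 were among the 39: B2m, Lancl2, Pdk1 and Slc6a7.

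**Figure D4:**
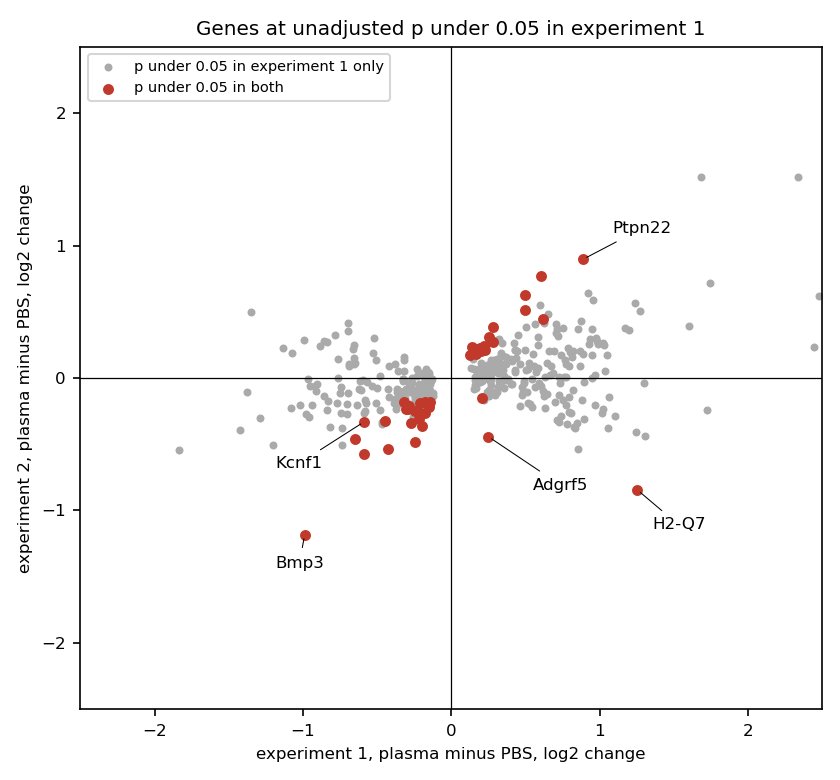
Each dot is 1 of the 405 genes with an unadjusted p under 0.05 in experiment 1 that were tested in both, with its log2 change in experiment 1 on the x axis and in experiment 2 on the y axis, and 5 genes lie outside the plotted range. The 39 red dots also had an unadjusted p under 0.05 in experiment 2, and 36 of them lie in the quadrants of equal sign.

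Lancl2 was at 40.7 to 53.9 CPM in the 5 plasma libraries of the second experiment and at 52.8 to 59.6 CPM in its 4 PBS libraries, overlapping through 1 plasma library. Its log2 change there was -0.24 ± 0.08 (SE). Pdk1 was at 43.1 to 60.4 CPM with plasma and at 52.3 to 62.2 CPM with PBS, a log2 change of -0.25 ± 0.10 (SE). Slc6a7 was at 15.5 to 19.7 CPM with plasma and at 18.0 to 26.5 CPM with PBS, a log2 change of -0.32 ± 0.13 (SE).

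Others of the 39, chosen after their values were seen, were Kcnf1, Bmp3 and Rps9. Kcnf1, a silent subunit of voltage-gated potassium channels, was at 51.2, 36.1, 47.2, 45.3 and 49.3 CPM with plasma and at 59.9, 76.1, 56.8 and 86.4 CPM with PBS in the first experiment, without overlap. In the second it was at 35.6 to 46.8 CPM and 44.3 to 60.1 CPM. Bmp3, a member of the bone morphogenetic protein family, was at 9.52 to 14.9 CPM with plasma and at 9.44, 31.7, 20.2 and 26.4 CPM with PBS in the first experiment. In both genes PBS replicates 5 and 11 were the highest, the libraries lowest in Prox1. With the subregion scores as covariates, the first-experiment log2 change was -0.36 ± 0.13 for Kcnf1, beside -0.59 ± 0.24, and -0.50 ± 0.23 for Bmp3, beside -0.99 ± 0.45 (SE). Rps9, a protein of the small ribosomal subunit, had log2 changes of 0.20 ± 0.09 and 0.23 ± 0.07 (SE).

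With both experiments in 1 fit and the experiment as a covariate, 0 of 17569 genes (0%) passed in edgeR, with a lowest adjusted p of 0.107. At an unadjusted p under 0.05 there were 1679 genes (9.56%), 731 higher (4.16%) and 948 lower (5.40%). DESeq2 called 55 genes in the same design, 19 higher and 36 lower, of which 13 were among the 39 above. The lowest p in edgeR was that of Prkar2b, a regulatory subunit of protein kinase A, with a log2 change of -0.37 ± 0.06 (SE). It was at 38.7, 36.8, 47.4, 38.2 and 35.6 CPM with plasma and at 43.1, 55.7, 53.2 and 53.7 CPM with PBS in the first experiment, overlapping through plasma replicate 7 and PBS replicate 2. In the second it was at 33.3 to 42.7 CPM with plasma and at 45.3 to 50.9 CPM with PBS, without overlap. Without PBS replicate 70 of the second experiment, 14 genes passed in edgeR, all lower with plasma, among them Prkar2b, Kcnf1, Bmp3 and Lancl2. PBS replicate 70 was the library of the second experiment highest in Ttr, at 2956 CPM, against 21.0 to 50.9 CPM in the other PBS libraries there. Without PBS replicate 2 of the first experiment, 6 passed, 1 higher and 5 lower.

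Neither of the other regions of the same mice differed from the hippocampus past the threshold. The plasma change in the hippocampus minus that in the cortex passed in 0 of 19490 genes (0%) in edgeR, with 949 (4.87%) at an unadjusted p under 0.05. Against the cerebellum, 0 (0%) passed, with 844 (4.33%). DESeq2 called 0 genes in both. For antigen presentation genes the median of the difference was 0.34 against the cortex and 0.27 against the cerebellum, and for interferon response genes 0.36 and 0.41.

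In naive mice 13 of 18070 genes (0.0719%) passed between 2 and 18 months in edgeR, 12 higher and 1 lower at 18 months, with 1155 (6.39%) at an unadjusted p under 0.05. In DESeq2 24 genes passed, and leaving out 1 naive library at a time left 2 to 9. The naive libraries share no mouse with the plasma comparison. Young replicates 14 and 20 were low in a score of dentate and CA markers, their mean log2 CPM, at 4.47 and 5.37. The other naive libraries were at 5.71 to 6.05. Young replicate 20 was also shallow, at 1816018 counts. How far these differences entered the age values below was not tested. C4b rose with age, from 25.1 ± 9.00 CPM in the 4 young mice (mean and SD) to 129 ± 38.8 CPM in the 3 old ones, a log2 change of 2.30 ± 0.24 (SE). Of the 12 genes that rose with age, 3 had a plasma log2 change below 0: Abca8a, a lipid transporter gene, at -0.03 ± 0.18, Prrg1 at -0.09 ± 0.18 and Spag6, a gene of motile cilia, at -0.09 ± 0.28 (SE). The other 9 lay above 0, up to 0.67 for H2-Q6. Signs of such small values are not firm: the mean of Abca8a was 12.9 CPM in PBS and 13.0 CPM in plasma, and that of Ppl, with a fitted change of 0.09, was 3.00 and 2.96 CPM. Gpr17, a receptor of oligodendrocyte precursors, fell with age by 0.85 on the log2 scale and had a plasma change of -0.18 ± 0.11 (SE). The 95% interval of the plasma change reached down to -0.13 for C4b and -0.10 for Ctss, a lysosomal protease gene of microglia, against age changes of 2.30 and 0.77.

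At an unadjusted p under 0.05, 594 genes were higher and 561 lower at 18 than at 2 months. Plasma had the opposite sign in 203 of the 594 (34.2%) and in 248 of the 561 (44.2%). The median plasma log2 change was 0.06 over the genes higher with age and -0.02 over those lower with age, beside 0.01 over all genes.

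**Figure D5:**
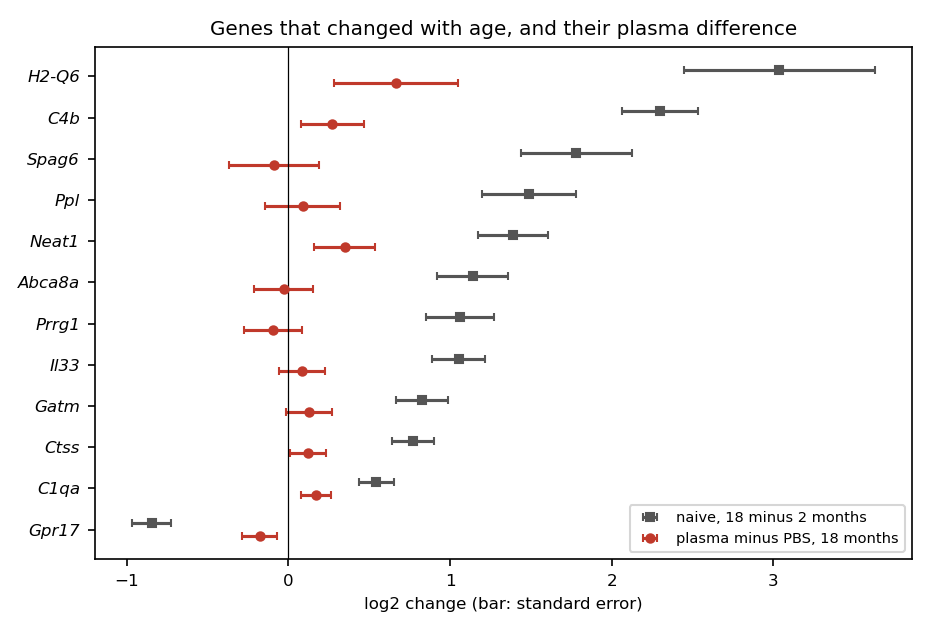
For 12 of the 13 genes that passed between naive mice of 2 and 18 months, the grey square is the age log2 change and the red dot the plasma log2 change at 18 months, with SE bars. The age change of C4b is 2.30 and its plasma change 0.27, and Abca8a, Prrg1 and Spag6, which rose with age, have plasma values below 0.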

How the data were processed

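The deposited table holds whole-number counts per gene symbol that the authors made, 35486 symbols of which 6251 were 0 in every library. Per the submitters' processing notes, reads were handled with Trim Galore 0.3.7 and STAR 2.5.3a on GRCm38, and DESeq2 is also named. The counting tool and annotation are not given in the sources used here. Per the labels, RNA was isolated with RNeasy and made into unstranded Smart-Seq2 and Nextera XT libraries, so overlapping genes on opposite strands cannot be told apart. Counts were fitted with edgeR 4.0.16 (R 4.3.3, quasi-likelihood test, TMM, genes kept at a minimum count of 10 and a minimum total of 15), with all first-experiment hippocampus groups in 1 fit. P-values were adjusted over all genes tested by Benjamini-Hochberg. DESeq2 1.42.0, limma 3.58.1, other filters and scalings, covariates and fits without single libraries were alternatives, and the script was tested on simulated data. Genes were named, at a mean of at least 5 CPM and without clone or predicted names, by lowest unadjusted p up to 12 in each direction, since none passed, and by lowest p up to 2 in each list at an unadjusted p under 0.05. C4b, Gfap, Serpina3n, Fkbp5, Ttr, Fos, Dcx and Bdnf were named in any case. The members and lists were chosen with earlier results of these data known. Regions were paired by the animal number in the labels. Deviations of the same mouse from the group means had a median correlation of 0.104 between hippocampus and cortex (-0.0998 to 0.318) and 0.0299 between hippocampus and cerebellum (-0.0554 to 0.213). In both pairs of regions some mice correlated better with another mouse than with themselves, and others did not. Against the cortex, replicate 11 had 0.0991 with itself and 0.298 with its best other mouse, and replicate 1 had 0.318 and 0.137. P-values of plasma against PBS in the first experiment rest on the spread between mice within all its hippocampus groups, not only the compared ones. The tests between regions held several libraries of each mouse without a term for the mouse, except where it was a block. Their p-values therefore do not measure the spread between mice alone. Values of some genes are not reported here.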

Additional observations from a re-analysis of the deposited data

Results flagged for a closer look

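Of 102 groups of values examined, 8 had 1 library far from the others of its group, 6 in plasma and 2 in PBS, where chance gives about 1 in 20. In plasma replicate 7, Ttr stood apart at 2444 CPM, Clic6 at 54.0 CPM (53.95), and the summed choroid plexus and ependyma list at 4328 CPM. In plasma replicate 1, Tmem35a was the highest of its group at 37.8 CPM and Nf2 the lowest at 62.8 CPM. The lowest plasma library of Hhatl, a gene of the heart and brain, was at 5.93 CPM. The lowest PBS library of Cetn4, a centrin gene, was at 3.57 CPM. The summed myelin list in PBS replicate 11 was at 4290 CPM, below the other 3 PBS libraries.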

How the results depend on the processing

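The plasma comparison kept 0 passing genes under 20 of 21 alternatives, with 303 to 995 genes at an unadjusted p under 0.05 (350 to 576 without single libraries). With dentate, CA and striatum or thalamus scores as covariates, 6 genes passed, all higher: Steap1, Tmprss11a, Aqp1, Slc4a5, Defb11 and Tgtp1. Their log2 changes in this fit were extreme, from 4.15 for Tgtp1 to 14.9 for Tmprss11a. The choroid plexus score was not among these covariates, and plasma replicate 7, with the choroid plexus markers, was in the fit. Its part in these calls was not tested. DESeq2 called 21 genes in the second experiment, 55 over both experiments and 24 for age. Without single libraries the counts were 0 to 1 in the second experiment (Fxyd1, without PBS replicate 70), 0 to 14 over both experiments and 2 to 9 for age. Over both experiments, 14 passed without PBS replicate 70, 6 without PBS replicate 2, and 1 each without plasma replicate 7, plasma replicate 76 and PBS replicate 8. For age, 2 passed without naive 18-month replicate 6, 3 without replicate 3 and 6 without replicate 9, and 6, 5 and 8 without naive 2-month replicates 12, 14 and 20. The cause of these moves was not tested.

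Of 882 values of the 42 named genes, 868 kept their direction, 14 reversed and 0 passed. Fos ran from -0.39 to 0.24 without single libraries (-0.12 without plasma replicate 4, -0.39 without plasma 7, -0.02 without PBS 2 and -0.08 without PBS 11). It was -0.42 with limma-voom, -0.43 with limma-voom on the 9 libraries, -0.11 without libraries under 2500000 counts, -0.14 with the choroid plexus covariate and -0.70 without plasma replicates 4 and 7. Serpina3n was -0.045 without the mice of the shared title number and -0.072 with the subregion covariates. Ttr ran from -0.66, without plasma replicate 7, to 4.57, without PBS replicate 5, and was -0.22 with the choroid plexus covariate and -0.82 without plasma replicates 4 and 7. The choroid plexus score holds Ttr and Clic6 themselves, so the fit with it cannot test their changes. Of 840 list medians, 816 moved by less than 1 SD. This SD was the pooled SD of each list on the log2 scale, 0.57 for antigen presentation beside a median of 0.53. The striatal and thalamic median went from -0.22 to 0.12 within its SD of 0.39, so that even a change of sign could count as less than 1 SD. The limma fit on the 9 libraries and the fit without plasma replicates 4 and 7 were chosen after seeing the data. With the mouse as a replicate block, 0 genes passed against the cortex (903 at an unadjusted p under 0.05, against 949 without the block) and 0 against the cerebellum (844 with and without it). Plasma and PBS mice share no replicate number, so no paired analysis of plasma against PBS was possible.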

Other observations

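Mural cell and fibroblast genes had 12 of 15 members above 0 with a median log2 change of 0.32 in the first experiment, and 5 of 15 with a median of -0.19 in the second. The first median ran from 0.01, without plasma replicate 7, to 0.63, without PBS replicate 2, and was 0.07, 0.14 and 0.10 without plasma replicate 10, PBS replicate 5 and PBS replicate 8. Endothelial genes had 12 of 17 above 0 with a median of 0.06 in the first and 3 of 17 with -0.17 in the second. The test of the difference between the experiments passed 0 genes of either list, with 1 of 15 and 3 of 17 at an unadjusted p under 0.05 in edgeR, beside 3.10% of all genes. Adgrf5, an adhesion receptor of endothelial cells, had the lowest unadjusted p of the difference between the experiments among genes of at least 5 CPM, 0.000569 in edgeR, at a difference of 0.70 ± 0.17 (SE), and did not pass. Interneuron genes had 2 of 13 above 0 with a median of -0.10 in the first experiment and 7 of 13 with 0.03 in the second. Cholesterol synthesis genes had 3 of 18 with -0.05 in the first and 6 of 18 with -0.02 in the second.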
